A study of Mus musculus with 2 samples.

Results

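The genes described here are the 10 members of the MYC, MAX and MXD network: Myc, Mycn, Mycl, Max, Mnt, Mxd1, Mxi1, Mxd4, Mga and Mlx. They were chosen by name from 21887 protein-coding genes, and every ATAC-seq peak within a gene body or 50 kb on either side was collected, which gave 42 of 22570 late-stage peaks and 15 of 5735 early-stage peaks. Mycl was set against the others because earlier results of the same data showed its stretch of chromosome 4 to be dense in late-stage peaks, so its peak count and its position in that stretch are descriptions and carry no test. ATAC-seq marks open chromatin, where a transposase can insert sequencing adapters. The series compares prostate tumor cells at a late and an early stage of progression to neuroendocrine prostate cancer (NEPC), a form with features of nerve and hormone-secreting cells. M6 came from C57BL/6 mouse prostate tumor cells after tamoxifen for 6 months, and W2 from the same kind of cells after tamoxifen for 2 weeks. The labels name neither the alleles of the tumor model, nor the promoter of any tamoxifen-dependent recombinase, nor the number of animals, nor whether cells were cultured. With a single library at 6 months and a single one at 2 weeks, differences between them have no replicates behind them and were not tested.

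MYC proteins are transcription factors that bind DNA only as a pair with MAX, most often at the E-box sequence CACGTG, and raise the transcription of genes for growth and metabolism. MXD1, MXI1, MXD4, MNT and MGA also pair with MAX and occupy similar sites, where the first 4 recruit SIN3 corepressors and MGA joins a Polycomb complex. MLX is a MAX-like hub that pairs with some MXD proteins, MNT and the glucose-responsive Mondo proteins. MYCN is a known driver of NEPC and MYCL of small-cell lung cancer, another neuroendocrine tumor.

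All 10 genes had at least 1 M6 peak in their window and 7 had a W2 peak, against 74.4% and 48.3% of all protein-coding genes. Myc, Mycn and Mlx had M6 peaks only, 3 of 10 members, and 27.1% of all genes did, so this share is near that of genes at large. M6 had more peaks than W2 in 8 windows and as many in 2, those of Max and Mxd1, where 64.2% of all genes had more. Mycl held 11 of the 42 M6 peaks and 4 of the 15 W2 peaks. A peak within 1 kb of an annotated gene end lay at 8 members in M6 and 5 in W2, and at 39.7% and 18.4% of all genes. The M6 list was 3.94 times as long as that of W2. The M6 list was then cut to its 5735 peaks of highest −log10 q, the length of the W2 list, which stayed whole. The lowest −log10 q kept was 10.8 in M6 and 1.47 in W2, so the 2 lists met unlike thresholds. The windows then held 20 M6 and 15 W2 peaks, and 9 members had an M6 peak and 7 a W2 peak, against 45.1% and 48.3% of all genes. With the M6 list cut by fold instead, the order turned to 10 M6 and 15 W2 peaks, among them 0 M6 and 4 W2 peaks for Mycl.

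**Figure D1:**
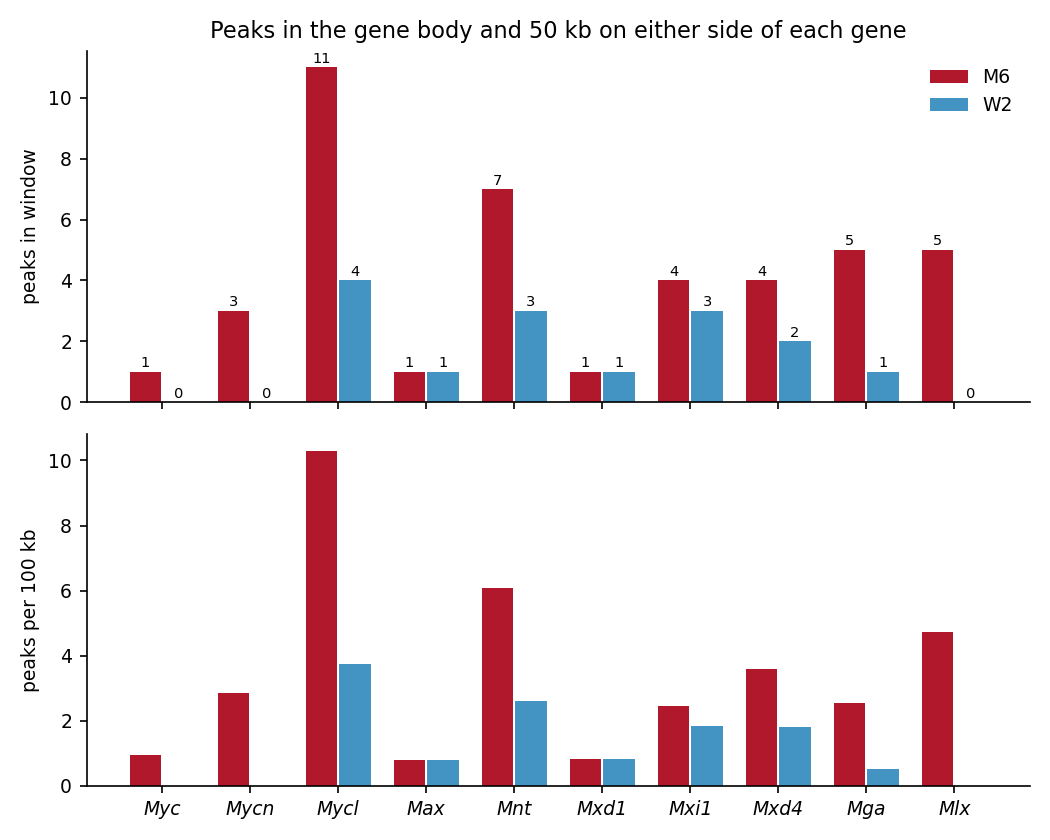
Number of peaks (top) and peaks per 100 kb (bottom) in the gene body and 50 kb on either side of each gene, for the M6 and the W2 library, with 1 library per time point. Mycl has 11 M6 and 4 W2 peaks, while Max and Mxd1 have 1 in each library.

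The promoters of the genes whose peaks are compared below were read from a RefSeq table of build GRCm38.p6, which is mm10, and cover 250 bases before to 50 bases after an annotated start. Of the 10 genes, 9 had an entry, with 11 promoters in all; Myc was not among them. They were searched on both strands for the E-box of MYC and MAX, spelled CACGTG, which 1666 of 21263 promoters of protein-coding genes held (7.84%). An E2F motif, spelled TTTGGCGC in one form and, in the other form that was also searched, TTTCGCGC, was found in 1.05% of these promoters. The TATA box, searched as the letters TATAAA, was found in 12.6%. The full promoters of Mycl and Mycn are shown because these are the MYC genes with a peak at their start. Capitals mark the letters TATAAA in Mycl, which begin at −8 bp from the annotated start, and the E2F motif in Mycn. The capitals in Mycn hold 3 matches that partly overlap. The match in Mycl is one of letters, and whether it serves that start was not tested.
Mycl, chr4:122995681-122995980, plus strand: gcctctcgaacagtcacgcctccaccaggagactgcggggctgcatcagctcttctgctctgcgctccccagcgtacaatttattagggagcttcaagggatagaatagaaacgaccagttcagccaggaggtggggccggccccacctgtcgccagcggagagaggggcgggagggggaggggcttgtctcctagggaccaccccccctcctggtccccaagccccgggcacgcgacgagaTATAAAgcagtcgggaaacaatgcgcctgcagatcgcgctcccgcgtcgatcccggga
Mycn, chr12:12941787-12942086, minus strand: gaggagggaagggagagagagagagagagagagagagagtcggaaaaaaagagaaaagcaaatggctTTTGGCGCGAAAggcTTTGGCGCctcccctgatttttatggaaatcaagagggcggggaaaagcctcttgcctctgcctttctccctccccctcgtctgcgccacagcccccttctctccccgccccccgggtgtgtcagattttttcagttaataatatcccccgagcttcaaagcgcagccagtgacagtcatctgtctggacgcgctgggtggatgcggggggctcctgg
Neither held the E-box. The M6 peak at Mycl covered all 300 of these bases and the W2 peak only 19 of them. The M6 peak at Mycn covered 287, with no W2 peak there.

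The E-box was present in 4 of the 11 promoters, all of them of MAX-like hubs or repressors. Stretches of 30 bases around it are shown, with the E-box in capitals.
Max, chr12:76962234-76962263, minus strand: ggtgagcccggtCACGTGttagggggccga
Mlx, chr11:101087238-101087267, plus strand: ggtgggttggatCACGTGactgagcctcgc
Mnt, chr11:74830789-74830818, plus strand: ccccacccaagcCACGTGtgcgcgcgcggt
Mxd4, chr5:34187912-34187941, minus strand: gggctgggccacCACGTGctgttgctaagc
M6 peaks covered the E-box in all 4 genes, and W2 peaks covered it in 2, Max and Mxd4. Of the 9 members with a promoter entry, 8 had an M6 peak on a promoter and 4 a W2 peak, so among these members such coverage was not particular to promoters with the E-box. The share over all promoters, or over all those with an E-box, is not given, so these counts cannot be set against promoters at large. By a wider measure, a peak within 1 kb of a gene end, 39.7% of all genes had one in M6 and 18.4% in W2. A match describes these letters and is not evidence that a factor was bound.

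Among the MYC genes, Mycl (chromosome 4, 122995588 to 123002490) stood apart in the height of its peaks and in the tags around them. The pileup is the number of sequenced tags, as the peak caller counted them, over the summit of a peak. It was recovered from the deposited values, as was the local background, the number of tags expected there from the surroundings. The 11 M6 peaks of the Mycl window had pileups of 118 to 224 tags with a median of 151, against 15 to 20 tags in the 4 W2 peaks. Every one of those M6 peaks was higher than every M6 peak of the other 9 windows, which ran from 13 to 75 tags. Local background in the Mycl window was 51.1 to 91.2 tags in M6, with a median of 63.5 or 18.0 times the median of all M6 peaks, and 3.70 to 4.42 tags in W2. A listed peak must rise above its local background. Most M6 peaks of the other windows, with a median of 26 tags, were below the M6 backgrounds of the Mycl window. Peaks of that height could not have been listed there, so the difference in height was partly set by the listing. Fold, the deposited ratio of pileup to local background, was 1.72 to 3.18 in M6 and 3.40 to 4.03 in W2, so by this measure the M6 peaks were the lower ones. All 4 W2 peaks of the window overlapped an M6 peak.

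The start of Mycl had a peak in both libraries, with 224 tags in M6 (122995381 to 122997405, −log10 q 26.7) and 20 tags in W2 (122995500 to 122995699, −log10 q 4.38). That is 11.2 times as many, with an exact binomial 95% interval of 7.08 to 18.7 for the ratio of tags, which covers counting error only and treats tags as independent although PCR copies are not. The local background differed more, with 91.2 tags in M6 and 4.42 in W2, a ratio of 20.6, and the fold was 2.44 in M6 and 3.87 in W2. The summits did not coincide. In M6 the summit of this 2025 bp peak lay 1331 bp downstream of the annotated start, and in W2 the summit of a 200 bp peak lay at −297 bp from that start, so the summits were 1628 bp apart. A site inside Mycl, 2848 bp from the start in M6, had matching summits 56 bp apart, with 194 tags in M6 and 17 in W2 (11.4 times, interval 6.95 to 20.0). Its fold was 2.15 in M6 and 3.46 in W2.

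Away from Mycl itself, the window held peaks at both neighbours. Mfsd2a, which encodes a lipid transporter, had 3 gene-end peaks in M6 and 0 in W2, and a site inside it had 186 tags in M6 and 18 in W2. Trit1, which encodes a tRNA-modifying enzyme, had an M6 gene-end peak of 190 tags with the highest −log10 q of the window (35.9) and no W2 gene-end peak. A site inside Trit1 had 195 tags in M6 and 15 in W2. Its ratio of 13.0 (interval 7.69 to 23.7) was the largest of all 4618 sites shared by the libraries. Between the genes, M6 alone had 3 peaks, 10.2 kb before the body of Mycl and 2.79 and 11.5 kb after it, with 119, 151 and 123 tags. The nearest peaks outside the window were 68.9 kb from the gene body in M6 (125 tags) and 69.2 kb in W2 (23 tags).

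**Figure D2:**
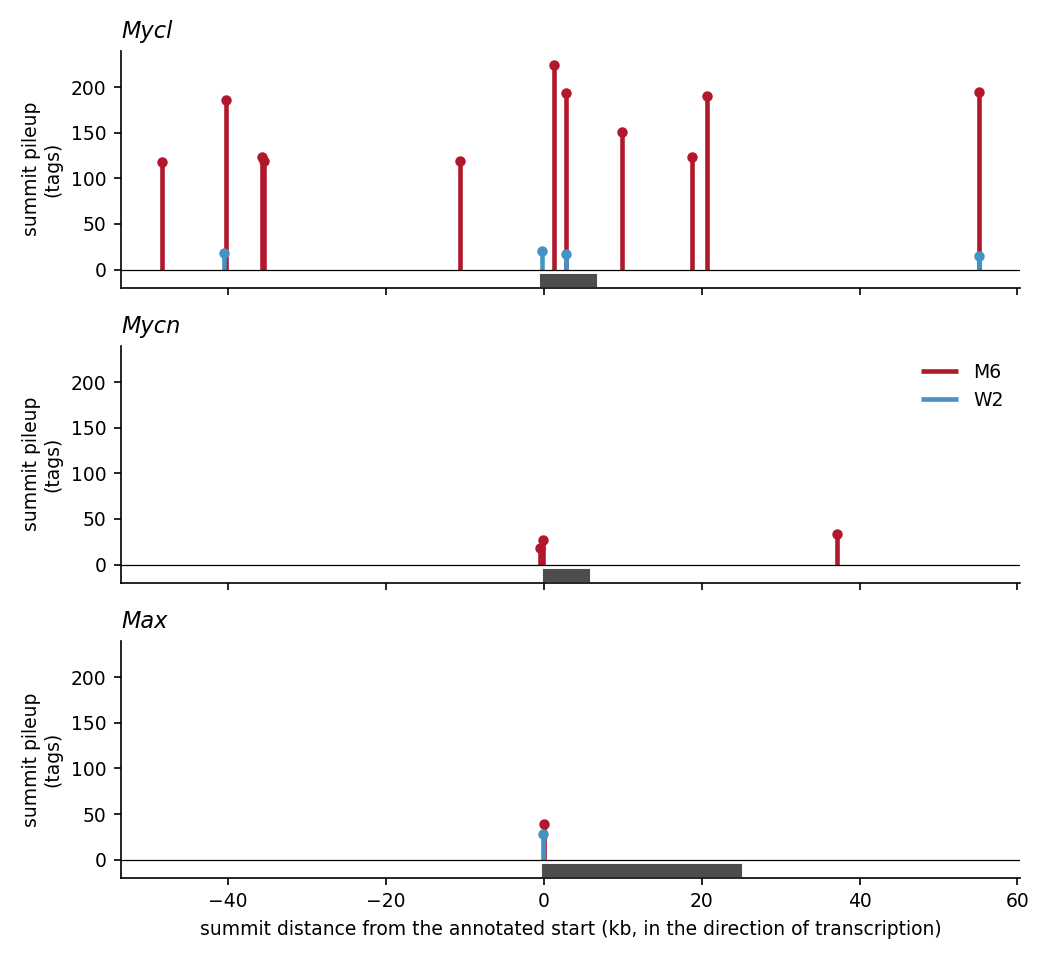
Summit pileup in tags of every peak in the windows of Mycl, Mycn and Max, by distance of the summit in kb from the annotated start in the direction of transcription; grey bars are gene bodies. Mycl peaks reach 224 tags in M6 and 20 in W2, while the peaks of Mycn and Max stay at or below 39 tags.

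By number of peaks per 100 kb, the Mycl window had 10.3 in M6 and 3.74 in W2. The 9 other windows together had 2.69 in M6 and 0.956 in W2, and the median of all protein-coding genes was 1.405 in M6 and 0 in W2. Mycl thus ranked 3 of 21887 genes in M6 and 224 in W2, and its window was also the densest of the 10 in W2. At least 11 M6 peaks in a window were found for 0.338% of genes. The M6 density of Mycl was 3.82 times that of the other windows. Within 10 kb of the gene the ratio was 2.53, from 3 M6 peaks.

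Peaks of raised local background, at least 3 times the library median, ran without a break for 644 kb around Mycl, 296 kb to its left and 341 kb to its right, with 59 M6 peaks and 15 genes. W2 had 9 peaks in the same run, 0 of them raised. In the 10 windows 12 of 42 M6 peaks and 0 of 15 W2 peaks had a raised background, against 0.97% and 0.192% of the whole lists. Raised background in M6 was not particular to Mycl: chromosome 4 held 189 of the 219 raised M6 peaks (12.2% of its 1555 peaks, against 0.143% on other chromosomes), and 130 of the 189 lay outside the run around Mycl, with a median of 36.2 tags. Windows with a raised M6 peak were those of Mycl and, by a single peak, Mnt, against 0.411% of all genes. Within the run, the M6 background was highest at Mycl, at 91.2 tags, while the highest of the whole M6 list was 119 tags, on chromosome 17. The 16 peaks of the run over 200 kb to the left of Mycl were lower, with 14.5 to 41.5 tags and a median of 30.9. The 14 peaks from there to Mycl had a median of 56.6 tags, the 17 peaks up to 200 kb to the right 59.0, and the 12 beyond 54.3. The next M6 peak to the left was 1484 kb away, with 3.56 tags, and that to the right 68.1 kb away, with 4.32 tags. Beyond that, 4 more raised M6 peaks lay 638 to 641 kb to the right of the Mycl start, with 26.0 to 26.5 tags. All 59 M6 folds were between 1.62 and 3.52, while the 9 W2 folds were between 3.39 and 6.45. What raised the background around Mycl, and its part in the pileups and in the number of peaks called there, was not tested.

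**Figure D3:**
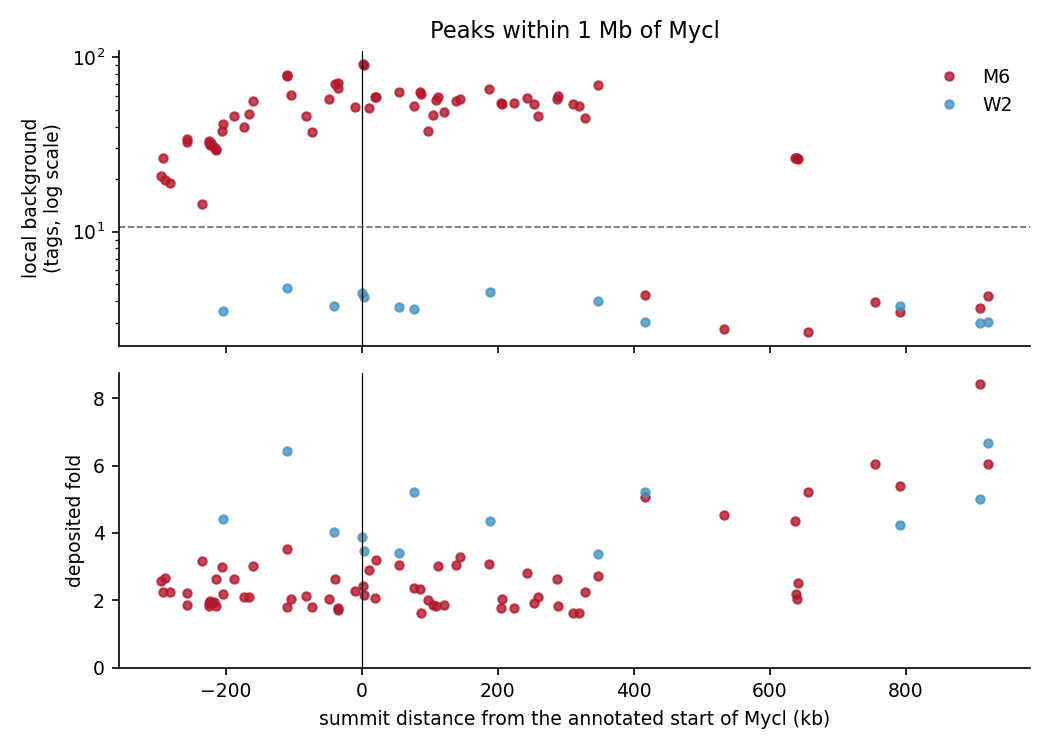
Local background in tags (top, log scale) and deposited fold (bottom) of each peak within 1000 kb of the annotated start of Mycl, by distance in kb; the dashed line is 3 times the M6 median background. M6 backgrounds near Mycl reach 91.2 tags and fall to 4.32 at the next peak right of the run, with 4 further raised peaks of 26.0 to 26.5 tags at 638 to 641 kb, while W2 peaks in the run stay between 3.52 and 4.74.

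The genes most like Mycl by the ratio of M6 to W2 tags at a shared gene-end site, out of 3850 genes with such a site, were mainly its neighbours on chromosome 4. Mycl was second. Bmp8a, which encodes a bone morphogenetic protein, had 189 tags in M6 and 16 in W2, Hpcal4 204 and 23, and the actin regulator Cap1 281 and 36. Those 3 lie 310, 181 and 110 kb from Mycl and had M6 backgrounds of 69.0, 65.3 and 79.02 tags. Next came 2 genes outside the raised run, Camta1 (72 tags in M6 and 16 in W2) and Nr1d2 (69 and 20), with M6 backgrounds of 7.72 and 8.70 tags. Unlike at Mycl, their folds were higher in M6, at 8.37 against 2.99 in W2 for Camta1 and 7.22 against 3.66 for Nr1d2. The M6 and W2 summits lay 524 bp apart at Camta1, 740 bp at Nr1d2 and 1628 bp at Mycl, so those ratios set tags at different positions side by side. At Bmp8a, Hpcal4 and Cap1 the gaps were 110, 136 and 11 bp.

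Mycn (chromosome 12, 12936093 to 12941836) had 3 M6 peaks and 0 W2 peaks. One covered the annotated start (12941800 to 12942095) with 27 tags over a background of 6.00 and a −log10 q of 7.005. A weaker one with its summit at −537 bp from the start had 18 tags and a −log10 q of 2.22. The strongest lay outside genes, 31.0 kb beyond the end of Mycn (12904581 to 12905054), with 34 tags and a −log10 q of 15.9, higher than 89.1% of M6 peaks. The nearest W2 peak to Mycn was 1210 kb away. W2 peaks began at 12 tags, so a site below that height is outside the W2 list, and absence from it is not absence of open chromatin. A gene-end peak in M6 and none in W2, the state of Mycn, Mlx and Mga, was found for 21.9% of all genes.

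Myc (chromosome 15, 61985341 to 61990361) had no peak at or inside the gene in either library. Its single M6 peak lay 45.7 kb from the gene body on its low-coordinate side (61939331 to 61939648), with 19 tags and a −log10 q of 7.74, and was thus just inside the window. Just outside it, the nearest peaks were 53.5 kb away in M6 (18 tags) and 53.4 kb away in W2 (14 tags). The Myc peak's background of 2.65 tags was the floor of its library, a value that peaks in the Mnt and Mga windows also had. None of the 4 peaks of Myc and Mycn had a raised background, and their pileups of 18 to 34 tags were below the lowest of the Mycl window, 118 tags. They were also below the lowest M6 background of that window, 51.1 tags, so peaks of their height could not have been listed there.

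**Figure D4:**
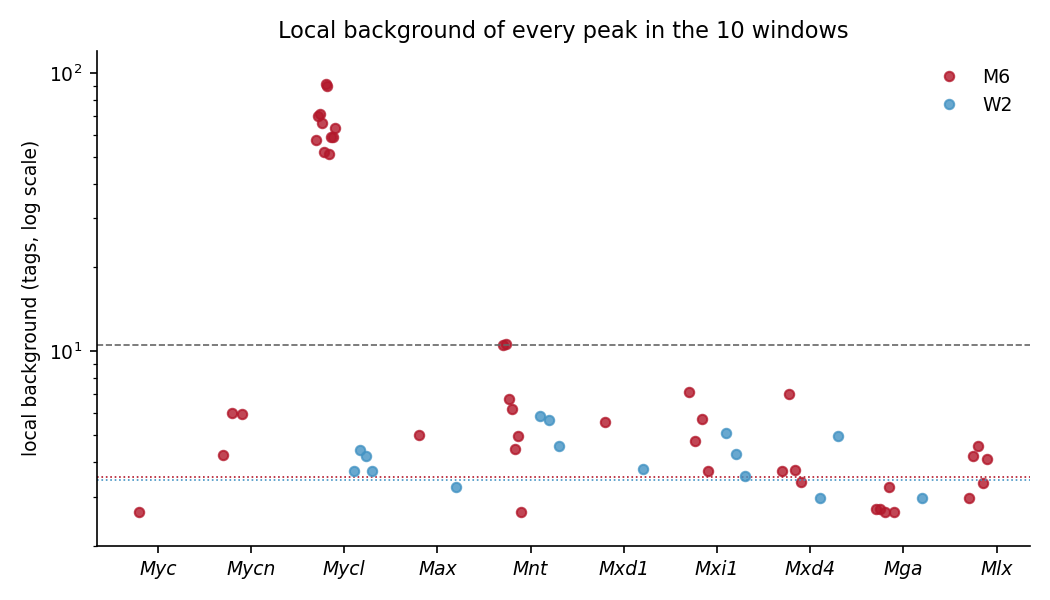
Local background in tags (log scale) of every peak in the 10 windows, by gene and library; dotted lines are the library medians and the dashed line is 3 times the M6 median. The 11 M6 peaks of Mycl sit at 51.1 to 91.2 tags, and no peak of another member exceeds 10.6.

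Max (chromosome 12, 76937269 to 76962323), the obligate partner of the MYC proteins, had 1 peak in each library, at the same place. At its annotated start M6 had 39 tags (fold 6.67, −log10 q 18.0) and W2 had 28 tags (fold 6.84, −log10 q 12.7). The ratio of tags was 1.39, with an interval of 0.835 to 2.35 that includes 1. Within each list the peak stood at a similar place, above 91.9% of M6 peaks and 91.4% of W2 peaks. Both peaks cover the E-box printed above, which spans the annotated start.

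Mlx (chromosome 11, 101086707 to 101092207), the hub of the parallel network, had 5 M6 peaks and 0 W2 peaks. Its own start had 24 tags in M6 (fold 4.496, −log10 q 7.38), and both the summit and the first base of its E-box lay at −40 bp from the annotated start. The 2 strongest M6 peaks of the window lay at neighbouring genes, 1 at the ends of Retreg3 and Tubg1 (40 tags, −log10 q 21.7) and 1 at those of Psmc3ip and Retreg3 (26 tags, 11.6). No W2 peak was nearer than 77.1 kb.

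Mnt (chromosome 11, 74830806 to 74845725), a MAX partner that acts against MYC, had 7 M6 and 3 W2 peaks, the most after Mycl in M6. All 3 W2 sites recurred in M6. At its end near the start the pileup was 52 tags in M6 and 27 in W2. In the gene body, 1407 bp from the start in M6, it was 57 tags in M6 and 22 in W2, a ratio of 2.59 (interval 1.56 to 4.45), and the third site had 35 and 24 tags. The summits of the first 2 sites had M6 backgrounds of 10.5 and 10.6 tags, against 5.84 and 5.66 in W2. The second, at 3.02 times the library median, was the only peak of raised background among those of the member windows other than that of Mycl. Unlike in the Mycl window, folds at these 3 sites were higher in M6. Of the 4 M6 peaks with no W2 counterpart, 1 lay inside Mnt and 3 at or inside its neighbour Sgsm2.

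Mxd1 (chromosome 6, 86647044 to 86669234) and Mxd4 (chromosome 5, 34176580 to 34187710) encode MXD repressors and had strong start peaks in both libraries. At Mxd1 the pileup was 61 tags in M6 and 25 in W2, a ratio of 2.44 (interval 1.51 to 4.06), with folds of 9.45 and 5.44. The M6 peak was above 99.6% of its list and the W2 peak above 75.6%. At Mxd4 the pileup was 75 tags in M6 and 39 in W2, a ratio of 1.92 (interval 1.29 to 2.91), with folds of 9.48 and 6.71. The Mxd4 start had the highest −log10 q of all peaks in the 10 windows in both libraries, 44.0 in M6 and 16.9 in W2. A further shared site of the Mxd4 window lay at the ends of Poln and Haus3, with 47 tags in M6 and 26 in W2.

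Mxi1 (chromosome 19, 53310128 to 53373293), another MXD repressor, had 4 M6 and 3 W2 peaks and no peak at the promoters in the table. A site inside the gene, 3806 bp from the first annotated start in M6, had 34 tags in M6 and 26 in W2, a ratio of 1.31 (interval 0.762 to 2.27). M6 alone had a peak 631 bp downstream of a later annotated start, with 23 tags and a −log10 q of 6.38. The window also held the only W2 peak among the 15 without an M6 counterpart, 47.9 kb beyond Mxi1 (53421217 to 53421594), with 18 tags and a −log10 q of 4.46.

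Mga (chromosome 2, 119872503 to 119970129), the longest of the 10 genes, had 5 M6 peaks and 1 W2 peak. M6 had a pair of weak peaks at the outer gene end (13 and 14 tags, −log10 q 3.24 and 3.89) and 1 at the annotated start inside it (119897112 to 119897760), with 18 tags, a −log10 q of 6.94 and a summit at −16 bp from that start. None of these had a W2 counterpart. The site in both libraries belonged to the neighbour Mapkbp1, with 30 tags in M6 and 22 in W2. All 5 M6 backgrounds were between 2.65 and 3.26 tags, below the library median of 3.52.

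At the 14 sites that both libraries shared, M6 had more tags at each of them, against 85.8% of all 4618 shared sites. The 10 sites outside the Mycl window had 30 to 75 tags in M6 and 22 to 39 in W2, with a median log2 ratio of 0.80, against 0.55 over all shared sites. For 5 of the 10, the interval of the ratio excluded 1, and for 2, inside Mnt and at Mxd1, it also lay above the median of all shared sites. These intervals cover counting error only, with tags not scaled for depth, so neither count tests a difference between the time points. The 4 sites of the Mycl window had 186 to 224 tags in M6 and 15 to 20 in W2, with a median log2 ratio of 3.50. By fold, M6 was higher at 8 of the 10 sites outside the Mycl window (the exceptions being Max and the site inside Mxi1) and at 0 of the 4 inside it, against 76.5% of all shared sites. Background ratios of M6 to W2 were 1.10 to 1.88 at the 10 sites and 17.2 to 21.4 at the 4, and the median over all shared sites was 1.24. Of the W2 window peaks 93.3% (14 of 15, exact interval 68.1 to 99.8%) overlapped an M6 peak, and of the M6 window peaks 33.3% (14 of 42, 19.6 to 49.5%) overlapped a W2 peak. Over the whole lists these shares were 80.5% and 20.2%. The intervals of the window shares treat peaks as independent, although 11 of the 42 M6 peaks lay in the Mycl window.

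**Figure D5:**
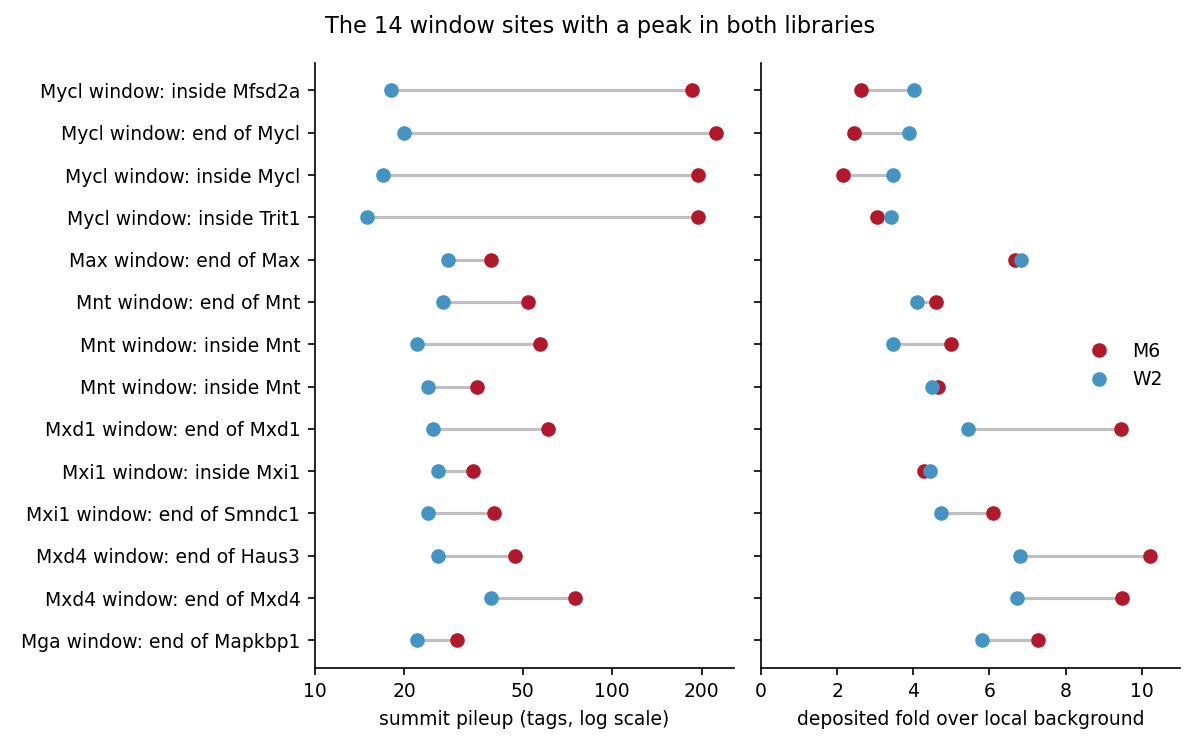
Summit pileup in tags (left, log scale) and deposited fold (right) in M6 and W2 at each of the 14 window sites with a peak in both libraries. The 4 sites of the Mycl window have 186 to 224 tags in M6 against 15 to 20 in W2, and lower folds in M6, while at the other sites the pileups stay at or below 75 tags.

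Partners and regulators of the network were counted at gene ends, in the whole lists of peaks, of which that of M6 was 3.94 times as long. Of the 3 remaining network genes, Mlxip, which encodes MondoA, was marked at an end in M6 and W2, Mxd3 in M6 only (−log10 q 7.18) and Mlxipl had none. Among 14 MYC cofactors, 12 had such a peak in M6 and 3 in W2, where all genes stood at 39.7% and 18.4%. Their M6 peaks without a W2 counterpart included those at Mycbp2 (−log10 q 19.5), the helicase gene Ruvbl1 (6.81) and Cdk9, a kinase of transcription elongation (5.83). In both libraries were Ep400, Actl6a and Mycbp. Corepressors of the MXD proteins had 8 of 10 in M6 and 4 in W2. M6-only peaks included those at Sin3b, a scaffold that binds MXD proteins (9.91), Rbbp7 (5.96) and Hdac2 (5.64), and Sap18 had a gene-end peak in W2 only (7.01).

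Over all genes, 39.7% had a gene-end peak in M6, 18.4% had one in W2 and 21.9% had one in M6 only. The partners of MGA in its Polycomb complex numbered 8, of which 6 had a gene-end peak in M6 and 2 in W2, with M6-only peaks led by Rnf2, the ubiquitin ligase of the complex (9.62), Tfdp1 (5.73), Pcgf6 (5.50) and Wdr5 (3.35), which is also on the cofactor list. Genes that control MYC protein stability had 9 of 12 in M6 and 6 in W2. The 6 in both libraries included Fbxw7, the ubiquitin ligase subunit that marks MYC for decay, and Gsk3b, the kinase that prepares it. The 3 of 12 with M6 peaks only are near the share of all genes; Trim32 had a −log10 q of 9.07, Trpc4ap 4.86 and Fbxo32 4.33. Well-known MYC target genes had 18 of 20 in M6 and 11 in W2, all 11 of them among the 18. M6-only peaks were strongest at Fbl, for a nucleolar RNA methyltransferase (16.0), Cad, of pyrimidine synthesis (11.6), Odc1, of polyamine synthesis (10.2), and Slc2a1, a glucose transporter (10.1). The median gene of these 6 lists gained between 1.5 and 3 window peaks in M6 over W2, and the median of all genes gained 1. Many of these are genes that most dividing cells use, and the lists were not matched to others by gene activity. With the M6 list cut to the length of that of W2, only M6 peaks with a −log10 q of 10.8 or more stayed. Of the M6-only peaks named for these 6 lists, those at Mycbp2, Fbl and Cad reach that value and the rest do not.

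Over the whole series, the lowest background of a library, a measure of relative depth, was 2.65 tags in M6 and 2.96 in W2, and read depth is unknown. Gene-end peaks at luminal prostate markers were found for 3 of 9 genes in M6 and 2 in W2, near the 39.7% and 18.4% of all genes. Epcam and Cdh1 had one in both and Krt8 in M6, while Hoxb13 had none. Neuroendocrine markers had 1 of 6 in M6 (Ncam1) and 0 in W2. The 3 basal, 4 leukocyte, 3 endothelial, 3 fibroblast and 2 smooth muscle markers had none in either library.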

How the data were processed

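ATAC-seq peak lists of 1 M6 and 1 W2 library were analysed. Build mm10, Bowtie2, deepTools, SAMtools 1.4 and Trim Galore 0.5.0 are named in the submitters' processing notes. No peak caller or threshold is named there. Cells were lysed with digitonin, per the labels' protocols. For each peak the deposited lists give the authors' fold (a linear ratio over local background), −log10 p and −log10 q, and a score, which is within 1 of 10 times the −log10 q and was not used. The authors' −log10 values describe and rank peaks within a list. Their fold was also set side by side between the libraries, as a description without a test, and it depends on the local background of each library. Unplaced sequences, with 24 M6 and 30 W2 peaks, were left out.

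Pileup and background were computed from the deposited fold, as (pileup + 1)/(background + 1), and the −log10 p, as a Poisson upper tail. A whole-number pileup matched 100% of peaks of both libraries within 0.001, and 100% of 2000 simulated M6-like peaks were recovered. A shared site needed 1 bp of overlap. Genes came from RefSeq (GRCm38.p6), with a gene end taken as 1 kb around either annotated end. With 1 library per time point no p-value is given. The intervals printed with shares and ratios are exact (Clopper-Pearson) at 95%. The network genes, gene lists and tests were chosen with earlier results of these data known. Text names all 10 network genes, the 5 genes most like Mycl, and per list up to 4 genes with the strongest M6-only gene-end peaks. Some genes under that rule are not reported here. Names beyond it were chosen after their values were seen. Python 3.11.15, numpy, scipy 1.17.1, pandas and matplotlib were used. Other windows, thresholds, overlaps and equal numbers of peaks were tried.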

Additional observations from a re-analysis of the deposited data

How the results depend on the processing

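Of 55 alternative values, 43 stayed within 1.5 times the reported count or, for shares and ratios, within its 95% interval, 11 moved and 1 reversed. Some of the 43 could not move, so their number overstates how stable the results are. The W2 list stayed whole in the cuts to equal numbers, so its values there repeat the reported ones. Leaving out the Mycl window could lower a count of members by only 1. Dividing pileups by the lowest background of each library shifts every log2 ratio by the same amount. For the median log2 ratios the range used was not an exact interval of the median. It was centred on the median and had the log2 width of the exact 95% interval for tags pooled over the sites. Of the 43, 3 lay within the interval but moved by over 1.5 times: the share of M6 window peaks with a W2 counterpart, 33.3%, was 21.4% with 50% reciprocal overlap, and the Mycl density ratio, 3.82, was 5.79 with equal numbers by −log10 q and 2.53 with 10 kb on either side. The median log2 ratio at the 4 shared Mycl sites, 3.50 by pileup, reversed to −0.64 by fold over local background, and was 3.06 after subtracting the background; fold divides by a background that was itself 17.2 to 21.4 times higher in M6. At the 10 other sites fold gave 0.35 in place of 0.80. The 42 M6 window peaks became 22 with 10 kb and 65 with 100 kb on either side, and 20 and 10 with equal numbers of peaks by −log10 q and by fold. W2 window peaks, 15, became 23 with 100 kb and 9 at a −log10 q of at least 5, when Mycl kept 11 M6 and 0 W2 peaks. Members with an M6 gene-end peak fell to 5 with equal numbers, where W2 also had 5 and all genes stood at 16.5% and 18.4%. The share of W2 window peaks with an M6 counterpart, 93.3%, was 60.0% with 50% reciprocal overlap and 100% (9 of 9) at a −log10 q of at least 5 in both. With annotated starts in place of gene ends, 9 members had an M6 peak and 5 a W2 peak. Sites below 10 tags in M6 or 12 in W2 are outside the lists. Annotated gene ends can miss a start inside the annotated gene, as at Mga. No paired analysis was possible because each time point had 1 library.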
